A study of Ovis aries and Bos taurus with 6 samples.

Results

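miR-375, miR-7 and the miR-183 cluster (miR-183, miR-96 and miR-182) are small RNAs best known from secretory and sensory epithelium. They were followed through the small RNA of milk extracellular vesicles (EVs), the membrane particles that cells shed into milk. The 5 miRNAs were taken by name from the cow table, where each had 1 row with a miRBase name. In the sheep table no row carried a miRBase name of these miRNAs, so they were taken from unnamed rows that listed the textbook mature sequence over at least 17 bases. This gave 6 rows of 685 in the sheep table and 5 rows of 779 in the cow table. The 5 were chosen by their sheep and cow counts, so their levels in the 2 species are given as a description, without a test.

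The milk was from 3 sheep of the Ordos fine wool breed and from Holstein cows (3 libraries), all female and in mid lactation, with no treatment named in the labels. Per the labels' protocols the same commercial precipitation kit for body fluids, column RNA extraction and TruSeq small RNA library kit served both species. The cow data were taken over from earlier work of the same group, and an effect of species, of breed and of study cannot be told apart here. The labels do not tie the 3 cow libraries to separate animals, and where libraries are not separate animals the spread between them may be technical.

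A mature miRNA guides a silencing complex to messenger RNAs that pair with its seed, the bases 2 to 8 from its 5′ end. miR-375 is abundant in hormone-secreting cells of the pancreas, where it restrains insulin release, and it also occurs in other glandular epithelia. miR-7 is likewise high in endocrine and neural cells, and the miR-183 cluster is cut from a common transcript and is known for its part in hair cells of the ear and in the retina. In milk, vesicles can come from the secretory epithelium of the udder, from leukocytes or from other cells, and a precipitation kit does not sort them. In such a mixture, fewer vesicles from a cell type and less of a miRNA in each vesicle cannot be told apart.

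The sheep sequences are printed as deposited, with T for U and with the seed in capitals, because the seeds define which miRNAs of the set could pair with the same targets.
miR-375: tTTGTTCGttcggctcgcgtga
miR-7, longer row: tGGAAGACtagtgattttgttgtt
miR-7, shorter row: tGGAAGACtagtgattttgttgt
miR-183: tATGGCACtggtagaattcact
miR-96: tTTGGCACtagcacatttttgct
miR-182: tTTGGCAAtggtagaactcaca

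The 3 members of the miR-183 cluster carried related but different seeds. Counting positions from 1 at the 5′ end, the seed of miR-183 differed from that of miR-96 by A2T alone. The seed of miR-96 differed from that of miR-182 by C8A alone, and that of miR-183 differed from miR-182 by A2T and C8A. miR-96 and miR-182 shared their first 7 bases. Over the whole length, seed included, the closest pair was another one: miR-183 and miR-182 had 18 of 22 bases identical at the same position (81.8%), against 13 of 22 (59.1%) for miR-183 and miR-96 and 12 of 22 (54.5%) for miR-96 and miR-182. miR-183 and miR-182 shared a run of 8 bases that began at base 9 in both.

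miR-375 and miR-7 had no base of the seed in common at the same position (0 of 7) and 6 of 22 over the whole length (27.3%). miR-375 was also the richest in G and C of the set, at 54.5% of its bases against 33.3% for the longer miR-7 row, 40.9% for miR-183 and miR-182 and 39.1% for miR-96. The median of all sheep rows was 54.2%. Each of the seeds of miR-375, miR-183, miR-96 and miR-182 stood at bases 2 to 8 of only 1 of the 685 sheep rows, its own, and the seed of miR-7 stood there in its own 2 rows. No sheep row under another name therefore shared a seed with any of them.

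In sheep milk EVs miR-375 was one of the main miRNAs. It had 53857, 9890 and 24574 counts in sheep replicates 1, 2 and 3, which came to 4.85%, 0.476% and 2.29% of all miRNA counts of the library. It was the 6th, 15th and 10th most abundant row. In the cow libraries it had 41, 71 and 10 counts, or 0.0125%, 0.0128% and 0.00258%, and ranked 129, 121 and 249. Every sheep library therefore held more miR-375 than every cow library, and the 3 sheep libraries differed among themselves by up to 10.2 times. The mean share was 2.54% ± 2.20 (SD, n = 3) in sheep and 0.00927% ± 0.00580 (SD, n = 3) in cow. A total without each library's largest row, chosen after seeing the data, gave 3.68% ± 2.36 (SD, n = 3) in sheep. In cow it gave 0.0216% ± 0.0117 (SD, n = 3).

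miR-7 was the next in sheep and the scarcest in cow. Its 2 sheep rows together held 2085, 4243 and 7843 counts, or 1877, 2041 and 7303 CPM (the count scaled to a common total of all miRNA counts of a library). In cow it had 0, 6 and 0 counts, and a count of 0 allows up to 9.13 and 7.74 CPM in cow replicates 1 and 3, from a floor of 3 counts. All sheep libraries lay far above all cow libraries, and sheep replicate 3 was the highest of them. The mean was 3741 ± 3086 CPM (SD, n = 3) in sheep and 3.59 ± 6.22 CPM (SD, n = 3) in cow, the latter resting on the 6 counts of 1 library.

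The 2 miR-7 rows of the sheep table differ by a single last base. The row of 24 bases joins 2 predicted hairpins in its name, and the row of 23 bases for another hairpin. Mammals carry several copies of the miR-7 gene with the same mature sequence, so which copy a count came from cannot be told apart here. The longer row held 91.4%, 97.4% and 89.2% of the miR-7 counts (mean 92.7% ± 4.25, SD, n = 3).

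miR-183, the first-named member of the cluster, had 337, 1020 and 640 counts in sheep, or 303, 491 and 596 CPM. In cow it had 5, 7 and 25 counts, or 15.2, 12.6 and 64.5 CPM. The sheep values all lay above the cow values, and they varied among themselves by 1.96 times between the highest and the lowest, or by 3.57 times with the largest row of each library left out of the total. The mean was 463 ± 148 CPM (SD, n = 3) in sheep and 30.8 ± 29.2 CPM (SD, n = 3) in cow.

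miR-182 had 241, 520 and 112 counts in sheep, or 217, 250 and 104 CPM, and 11, 45 and 79 counts in cow, or 33.5, 80.9 and 204 CPM. The 2 species overlapped, since cow replicate 3 was above sheep replicate 3. The mean was 190.5 ± 76.5 CPM (SD, n = 3) in sheep and 106 ± 87.9 CPM (SD, n = 3) in cow.

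miR-96 was the scarcest of the set in every sheep library, with 17, 7 and 6 counts or 15.3, 3.37 and 5.59 CPM. In cow it had 3, 25 and 51 counts, or 9.13, 44.9 and 132 CPM. The highest sheep library was above the lowest cow library, so the groups overlapped, while the other 2 cow libraries stood above all sheep libraries. The mean was 8.09 ± 6.35 CPM (SD, n = 3) in sheep and 61.9 ± 62.9 CPM (SD, n = 3) in cow.

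**Figure D1:**
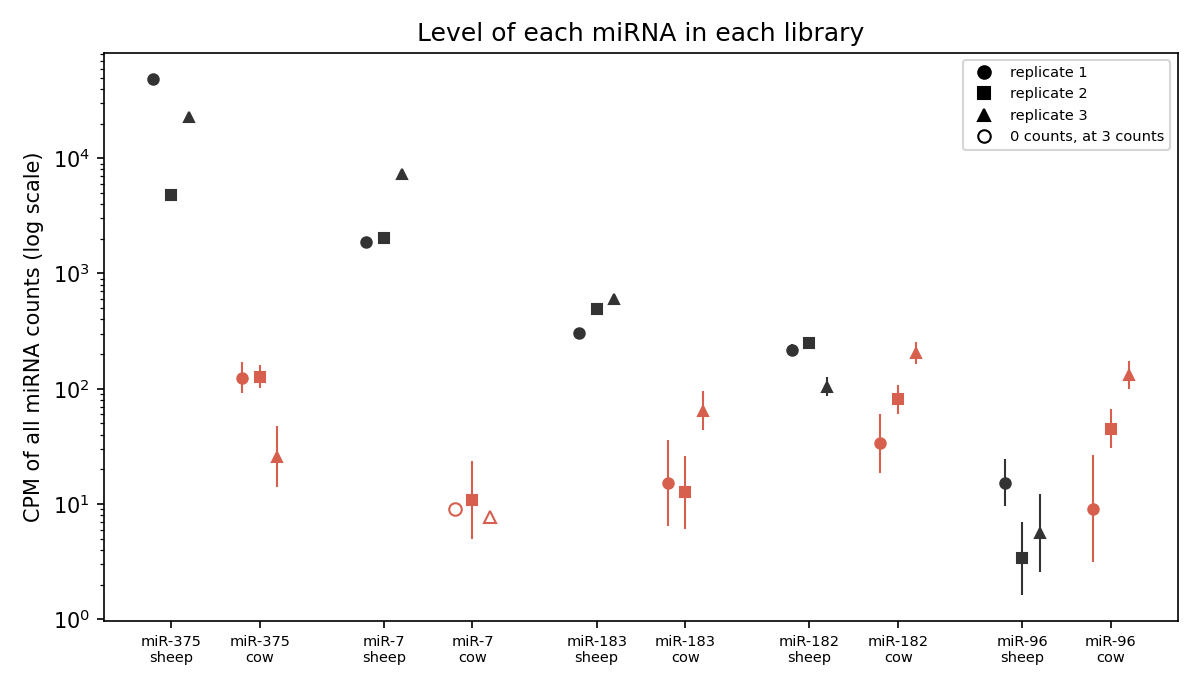
Level of each of the 5 miRNAs in each library, as CPM of all miRNA counts on a log axis, with sheep in black and cow in red, symbols for replicates 1 to 3 and bars for the Wilson 95% interval, which covers counting error only. Open symbols mark 0 counts, drawn at the level of 3 counts; miR-375, miR-7 and miR-183 have all sheep points above all cow points, and miR-182 and miR-96 do not.

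By this measure 3 of the 5 had all sheep libraries above all cow libraries. Among the 160 miRNAs joined between the tables the same was true of 44.4%, and 13.8% had all cow libraries above all sheep libraries. Since the 5 were chosen with these values known, nothing is read from their count.

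The order of the 5 miRNAs was the same in each sheep library: miR-375, miR-7, miR-183, miR-182 and miR-96 from highest to lowest. Over the 3 sheep libraries the ranges of miR-375 (4758 to 48492 CPM) and miR-7 (1877 to 7303 CPM) overlapped, and the ranges of the other neighbours did not. The distance between the first pair varied widely, with 25.8, 2.33 and 3.13 miR-375 counts for each miR-7 count in replicates 1, 2 and 3. In cow the order changed from library to library. miR-375 was the highest in cow replicates 1 and 2, and miR-182 was the highest in cow replicate 3, where miR-375 came after miR-182, miR-96 and miR-183. The cow ranges of miR-375, miR-182, miR-183 and miR-96 all overlapped, and miR-7 was the lowest in each cow library, in replicate 2 by 1 count (6 against 7 of miR-183). Levels of different miRNAs in 1 library also carry the preference of adapter ligation and PCR for some sequences, which was not measured here.

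Together the 5 miRNAs took 5.09%, 0.754% and 3.09% of the miRNA counts in sheep (mean 2.98% ± 2.17, SD, n = 3) and 0.0183%, 0.0277% and 0.0426% in cow (mean 0.0295% ± 0.0122, SD, n = 3). These sums are mostly miR-375 in sheep. In cow they rest on 60, 154 and 165 counts.

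The counts of the miR-183 cluster were divided differently among its members in the sheep and the cow libraries. These proportions do not depend on the total of a library. In sheep miR-183 was the main product, with 56.6%, 65.9% and 84.4% of the cluster counts of replicates 1, 2 and 3, which numbered 595, 1547 and 758. miR-182 followed with 40.5%, 33.6% and 14.8%, and miR-96 made up 2.86%, 0.453% and 0.792%. Each sheep library had the order miR-183, miR-182, miR-96, and replicate 3 leaned furthest to miR-183.

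In cow miR-182 was the main product, with 57.9%, 58.4% and 51.0% of 19, 77 and 155 cluster counts. miR-183 made up 26.3%, 9.09% and 16.1%, and miR-96 15.8%, 32.5% and 32.9%. Cow replicate 1 is poorly resolved at 19 counts, with a Wilson 95% interval of 11.8% to 48.8% for miR-183 and 5.52% to 37.6% for miR-96. In cow replicate 3, the best resolved, the intervals were 11.2% to 22.7% for miR-183 and 26.0% to 40.6% for miR-96. Over libraries with at least 20 cluster counts, miR-183 averaged 69.0% ± 14.1 (SD, n = 3) in sheep and 12.6% ± 4.98 (SD, n = 2) in cow. miR-96 averaged 1.37% ± 1.30 (SD, n = 3) against 32.7% ± 0.308 (SD, n = 2), and miR-182 29.6% ± 13.3 (SD, n = 3) against 54.7% ± 5.28 (SD, n = 2). With all 3 cow libraries the cow means were 17.2% for miR-183, 27.1% for miR-96 and 55.8% for miR-182. For each of the 3 members the sheep shares lay on one side of all cow shares. The shares of a library add up to its whole, so these are not separate results. No background over other miRNAs was worked out for them. For miR-182 the Wilson 95% intervals of the species overlapped. They were 36.6% to 44.5% in sheep replicate 1, 36.3% to 76.9% in cow replicate 1 and 43.2% to 58.7% in cow replicate 3. The proportions come from the same counts as the levels that chose the members, so this is a description.

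**Figure D2:**
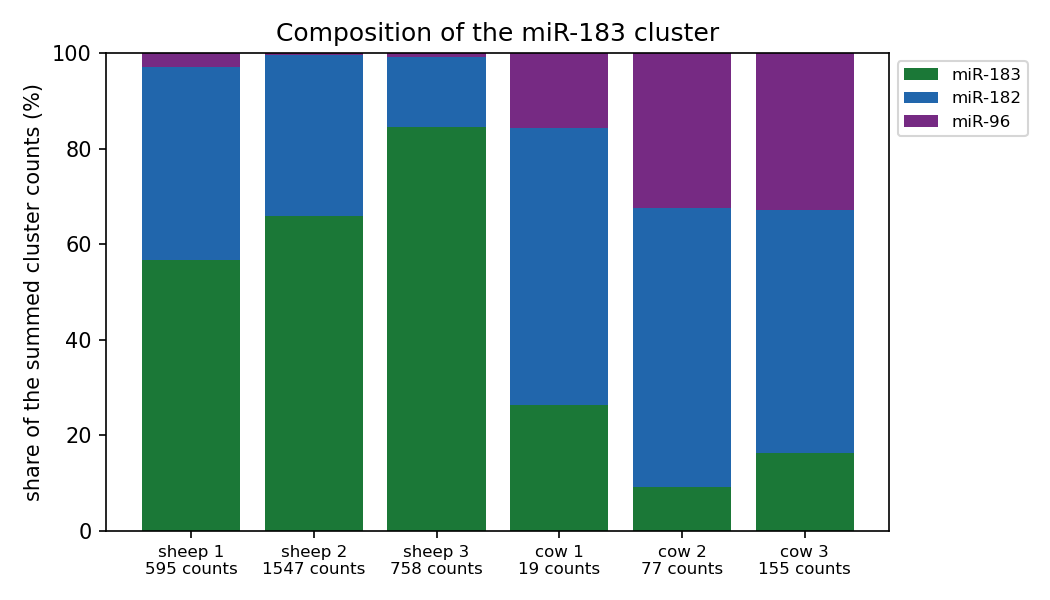
Share of miR-183, miR-182 and miR-96 in the summed counts of the cluster (%), 1 stacked bar per library, with the summed counts under each bar. miR-183 takes 56.6% or more of each sheep bar and 26.3% or less of each cow bar, and the cow replicate 1 bar rests on 19 counts.

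A hairpin gives a mature strand and an opposite strand that is mostly discarded. The sheep table lists opposite strands for miR-7, miR-183 and miR-182, and these were close to absent. They held 7 counts beside 14171 for miR-7 (0.0494%, Wilson 95% interval 0.0239% to 0.102%), 1 beside 1997 for miR-183 (0.0501%, 0.00884% to 0.283%) and 1 beside 873 for miR-182 (0.114%, 0.0202% to 0.645%). Over 41 sheep hairpins with both strands listed and at least 800 counts, the median was 0.700%. No opposite strand is listed for miR-375 or miR-96. The strands are printed with bases 2 to 8 in capitals because none of them shares that stretch with a mature strand of the set.
miR-7 opposite strand, longer row's hairpin: cAACAAGTcccagtctgccgca
miR-7 opposite strand, shorter row's hairpin: aACAAATCacagtctgccata
miR-183 opposite strand: tGAATTACcgaagggccat
miR-182 opposite strand: tGGTTCTAgacttgccaact

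The size of a difference between the species depends on what each library is scaled to. Cow rows without a miRBase name held 71.0% to 84.2% of the cow counts. The same unnamed row was the largest in each cow library, with 58.9%, 51.2% and 68.9% of the counts of replicates 1, 2 and 3. It counts in the totals behind the cow CPM. The 160 joined miRNAs held 93.8% to 97.6% of the sheep counts but 14.2% to 27.3% of the cow counts. A cow row without a name may hold reads of any miRNA, and no sequences of cow rows were at hand to check this. For the differences the libraries were therefore scaled to the joined miRNAs, with edgeR's TMM factors. All 5 miRNAs passed its filter on low counts, miR-7 only because of the sheep libraries and miR-96 only because of the cow libraries. Of the 138 joined miRNAs tested, edgeR (quasi-likelihood test, p-values adjusted by Benjamini and Hochberg) called 44 higher in sheep (31.9%) and 30 higher in cow (21.7%), and the median log2 difference was 0.43.

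On this scale the log2 difference of sheep minus cow was 6.60 ± 0.83 (SE) for miR-375. It was 8.54 ± 1.21 for miR-7, 4.96 with limma on log2(TPM + 10), a scale that understates low levels, and 14.69 without cow replicate 2, a fitted value against 0 counts that is no bound. For miR-183 it was 2.45 ± 1.13, and it ran from 1.38 without factors to 4.62 with limma on log2(TPM + 1). Leaving out sheep replicate 1 gave 3.64, and leaving out cow replicate 3 gave 4.14. For miR-96 it was -4.67 ± 1.45, but -0.60 ± 0.62 and -0.15 ± 0.13 with limma on log2(TPM + 1) and log2(TPM + 10). It was -2.93 with the whole table as library size and -3.07 without cow replicate 3. For miR-182 it was -0.66 ± 1.09, whose sign turned to 0.84 when the library size was the whole table, to 2.27 and 1.13 with limma on log2(TPM + 1) and log2(TPM + 10), to 0.51 without sheep replicate 1 and to 0.76 without cow replicate 3. In the main edgeR fit the first 3 miRNAs lay above the median of the 138 tested and the last 2 below it. With limma on log2(TPM + 1) and log2(TPM + 10), miR-182 lay above that setting's median, by 0.14 and 0.37. No p is given for these differences, as they chose the members.

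Summed over libraries and scaled in the same way, miR-375 was 87.1 times as high in sheep as in cow, with a counting interval of 73.0 to 105. For miR-7 the ratio was 284 (131 to 775). Without cow replicate 2, which holds all 6 cow counts, the exact lower limit of the miR-7 ratio was 241. A floor of 3 counts over all cow libraries left gave 296. Without sheep replicate 3 the miR-7 ratio was 168. Leaving out other libraries gave 54.3 without sheep replicate 1 for miR-375. For miR-183 the ratio was 6.50 (4.70 to 9.25) with all libraries, 15.3 without cow replicate 3 and 4.17 without cow replicate 2. For miR-96 it was 0.0457 (0.0290 to 0.0704), and 0.0987 without cow replicate 3. For miR-182 it was 0.778 (0.649 to 0.940), and 1.44 without cow replicate 3 and 0.511 without sheep replicate 2. Cow replicate 3 held 25 of the 37 cow counts of miR-183, 51 of the 79 of miR-96 and 79 of the 135 of miR-182.

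Against all miRNA counts of a library, named or not, the same ratios were 216 (181 to 260) for miR-375, 705 (324 to 1922) for miR-7 and 16.1 (11.6 to 22.95) for miR-183. They were 0.113 (0.0719 to 0.175) for miR-96 and 1.93 (1.61 to 2.33) for miR-182. Single libraries moved them further than these counting intervals. miR-375 stood at 114 without sheep replicate 1 and 375 without sheep replicate 2, and miR-7 at 421 without sheep replicate 3. Without cow replicate 3, miR-183 stood at 34.5, miR-96 at 0.222 and miR-182 at 3.24, and miR-96 was at 0.0664 without sheep replicate 1. miR-375, miR-7 and miR-183 were higher in sheep and miR-96 lower under both scalings, and miR-182 changed side. As a share of the joined counts, miR-375 and miR-7 had all sheep libraries above all cow libraries (23.1% of joined miRNAs did) and miR-96 had all sheep libraries below them (30.6% did), while miR-183 and miR-182 overlapped.

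**Figure D3:**
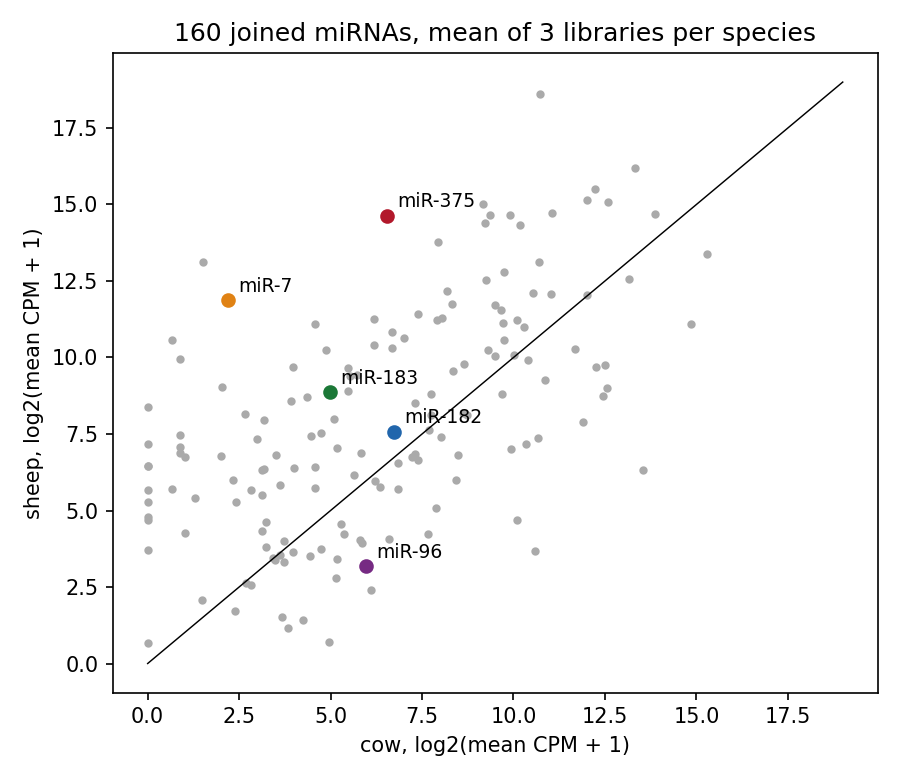
Mean level of 160 joined miRNAs in sheep against cow, each axis log2(mean CPM + 1) over 3 libraries scaled to all miRNA counts, with the line of equality and the 5 miRNAs coloured. miR-375 and miR-7 lie far above the line, miR-183 above it and miR-96 below it; miR-182 lies close to it, and its side depends on the scaling.

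The 5 miRNAs did not share an order over the sheep libraries. As CPM of all miRNA counts, miR-375 and miR-96 were highest in replicate 1 and lowest in replicate 2, miR-7 and miR-183 were highest in replicate 3 and lowest in replicate 1, and miR-182 was highest in replicate 2 and lowest in replicate 3. Of 117 joined miRNAs with a mean of at least 50 CPM in sheep, 49 (41.9%) had the order of miR-375 and 24 (20.5%) that of miR-7 and miR-183. The spread of miR-375 over the sheep libraries, 10.2 times, was exceeded by 18 of 116 of these miRNAs with no count of 0, whose median spread was 3.21 times. That of miR-183 was exceeded by 93 of them. The largest sheep row, miR-148a, a miRNA abundant in milk, took 19.6%, 63.6% and 38.0% of the counts, lowest where miR-375 was highest. With each library's largest row left out of the total, miR-375 held 6.03%, 1.31% and 3.69% in sheep, in the same order. The orders of miR-7 and miR-182 also held, but miR-183, at 0.0377%, 0.135% and 0.0961%, was then highest in replicate 2, as it was in the deposited TPM (34.2, 66.0 and 39.8). miR-96 was lowest in replicate 3 on both of these scales.

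Sheep replicate 1 stood apart in markers of other tissues. miR-122, a liver miRNA, had 70215 CPM there against 1843 and 5703 in replicates 2 and 3. The 4 listed striated muscle miRNAs summed to 26555 CPM against 550 and 876. That sum was mostly miR-1, with 25686 CPM in replicate 1. miR-206 and miR-133a were also highest there. miR-133b, at low counts, was highest in replicate 3, with 18.9, 6.25 and 28.9 CPM in replicates 1, 2 and 3. miR-486, found in red blood cells, had 77184 CPM against 741 and 705. miR-375, at its highest in that library, was 2.12 times as high there as in replicate 3, and the part of these other tissues in its level was not tested. Without sheep replicate 1 the sheep mean of miR-375 was 1.38% of the miRNA counts, and both libraries left were above every cow library.

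Markers of the cell types these miRNAs are known from were set beside them. Of 7 listed epithelial miRNAs, 6 had a sheep row, and they summed to 7166, 2717 and 4537 CPM in sheep replicates 1, 2 and 3. Their cow sums were 481, 73.7 and 144 CPM from 6 rows that are not the same 6 miRNAs, as the sheep table had no row named miR-200a and the cow table none named miR-203. miR-200a alone made up 280.04 of the 481 CPM of cow replicate 1. miR-200c, which holds epithelial cells in their state, had 3159, 1036 and 2371 CPM in sheep and 21.3, 3.59 and 43.8 CPM in cow. The members did not all follow it: miR-205, of basal and other stratified epithelium, had 80.1, 31.8 and 49.4 CPM in sheep and 146, 37.7 and 59.3 CPM in cow, and miR-429 had 235, 0 and 1.86 CPM in sheep. The epithelial sum, like miR-375, was highest in sheep replicate 1 and lowest in replicate 2, but over a smaller range, 2.64 times. This order was a common one, held by 41.9% of the 117 joined miRNAs of at least 50 CPM in sheep. The liver, striated muscle, and stroma and vessel lists had it too, and the red blood cell and leukocyte lists did not.

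The 7 listed neuron and endocrine miRNAs summed to 15463, 4601 and 8409 CPM in sheep, again in the order of miR-375, with a range of 3.36 times. Only 2 of the 7 had a cow row, so their cow sums of 387, 456 and 103 CPM cover fewer members. miR-9, a miRNA of neurons and their progenitors, led the list in sheep with 9098, 2451 and 4282 CPM for its 5p strand. miR-137 and miR-153, also of neurons, were close to absent, with 1, 1 and 2 counts and 4, 0 and 3 counts. Leukocyte markers summed to 15082, 12626 and 22253 CPM in sheep, highest in replicate 3. That sum was mostly miR-146a, with 9490, 11870 and 20612 CPM, and the other 5 leukocyte markers were all highest in replicate 1, such as miR-155 with 3688, 538 and 1283 CPM. What part any of these cell types had in the levels was not tested.

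**Figure D4:**
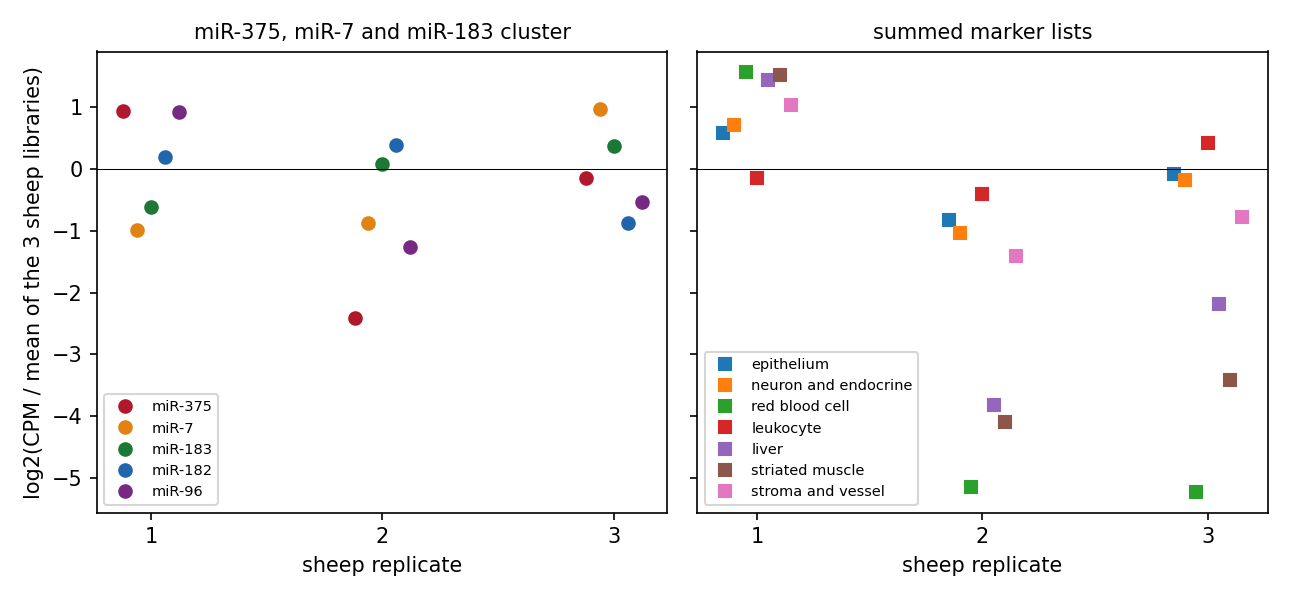
Level of the 5 miRNAs (left) and summed level of 7 marker lists (right) in each sheep library, as log2 of CPM over the mean of the 3 sheep libraries. miR-375 and miR-96 are highest in replicate 1, as are all lists but the leukocyte list, whose sum is mostly miR-146a. On this scale miR-7 and miR-183 are highest in replicate 3 and miR-182 in replicate 2; miR-183 is highest in replicate 2 in TPM.

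The miRNAs with the most similar profile were found over the 6 libraries, as the root mean square difference of log2(CPM + 1) after each miRNA was centred on its own mean, among 116 joined miRNAs of at least 50 CPM in sheep. For miR-375 these were miR-124a at 0.98, miR-34a at 1.19 and miR-200b at 1.34, against a median of 3.04. miR-124a, a neuronal miRNA, had 271, 124 and 131 counts in sheep and 0 in each cow library. miR-34a had 146, 87 and 95 counts in sheep and also 0 in each cow library. For miR-7 they were miR-200b at 1.08, miR-29c at 1.76 and miR-148a at 1.79, against a median of 4.12. miR-200b, an epithelial miRNA, had 2678, 1586 and 1525 counts in sheep and 0, 1 and 0 in cow. miR-29c had 0, 0 and 1 counts in cow. The cow values of miR-124a, miR-34a, miR-200b and miR-29c thus depend on the 1 added to CPM. So do those of miR-7 in cow replicates 1 and 3. Whether these miRNAs would stay the most similar with another added value was not tested.

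For miR-183 the most similar were miR-146b at 0.59, miR-20a at 0.72 and miR-27a-3p at 0.86, against a median of 2.02. For miR-182 they were miR-185 at 0.68, let-7g at 0.74 and miR-199a-3p at 0.87, against a median of 1.97. The members' own partners were farther away: miR-375 and miR-7 differed by 1.97, miR-183 and miR-182 by 1.72, miR-182 and miR-96 by 1.88 and miR-183 and miR-96 by 3.45. None of the 4 members with at least 100 sheep counts had another member among its 3 most similar miRNAs. The 6 libraries are 2 species, so this likeness reads the difference between the species together with the spread within each.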

How the data were processed

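Counts and TPM were deposited by the authors, 1 table of each per species with 1 column per library. The deposited counts are whole reads per miRNA row. The deposited TPM equal the count over 1 constant per library, without a correction for length. The tools named are cutadapt 1.14 and Bowtie, per the submitters' processing notes. The build of the genome, the miRBase release and how reads were counted were not given in the sources used here. Each library's miRNA counts ranged from 1073914 to 2078695 in sheep and from 328527 to 556489 in cow. Wilson 95% intervals and floors of 3 counts cover counting error only, as PCR copies are not independent molecules.

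Sheep rows without a miRBase name were named by recalled textbook mature sequences (at least 17 bases, offset at most 2, length difference at most 4), and no reference table of miRNAs was used. This named 132 rows; rows of a name were summed, and 160 names were joined to the cow table, 42 of them by miRBase name alone. Joined counts were tested with edgeR 4.0.16 (quasi-likelihood, TMM factors, library size of the joined miRNAs, filterByExpr, Benjamini-Hochberg adjustment, threshold 0.05). The SE of an edgeR difference was worked back from its test, as the absolute log2 difference over the square root of the F statistic. Counting intervals of ratios are exact for the summed counts. Alternatives were DESeq2 1.42.0, limma 3.58.1 on log2(TPM + 1) and log2(TPM + 10), other factors, totals, filters and joins, a block for the replicate number, and leaving out each library. The edgeR step was tested on simulated counts. It recovered 5 of 19 changes of log2 2 and 18 of 20 changes of log2 4, and called 0 of 97 unchanged miRNAs. The median error of the log2 difference was 0.21. Both simulated species had the same base profile, and the changes were given random directions. The check therefore does not bear on how the real differences depend on the scaling.

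The members and lists were chosen with earlier results of these data known. The named miRNAs are the 5 members with all their rows and opposite strands. Added to them are the 3 most similar miRNAs of each member with at least 100 sheep counts. Up to 3 miRNAs of highest sheep CPM were named in each of 7 marker lists. miR-133b, miR-137, miR-153, miR-200a, miR-203, miR-205 and miR-429 were named after their values were seen. Summed red cell markers were 77184, 741 and 705 CPM in sheep, where only miR-486 had a row, and 19813, 15303 and 27558 CPM in cow. Stroma and vessel markers were 10989, 2014 and 3122 CPM in sheep and 1988, 1989 and 1965 CPM in cow. Cow sums were 1014, 320 and 637 CPM for liver, 33.5, 0 and 15.5 CPM for muscle and 3327, 6705 and 3451 CPM for leukocytes.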

Additional observations from a re-analysis of the deposited data

How the results depend on the processing

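The number of joined miRNAs called by edgeR, 74, was 53 to 79 with 1 library left out and 20 (of 38) when rows were joined by miRBase name alone, a join that holds none of the 5 miRNAs. It was 83 with DESeq2 (53 higher in sheep, 30 in cow). The split of 44 higher in sheep and 30 in cow moved to 22 and 34 without factors, to 60 and 14 with whole-table totals, to 52 and 27 without a filter, and to 87 and 8 or 75 and 7 with limma on log2(TPM + 1) or log2(TPM + 10). These settings moved the median miRNA by -0.80, 1.40, 0.34, 2.74 and 2.05 on the log2 scale. With the replicate number as a block 70 were called. Same-numbered libraries correlated at 0.0016, 0.18 and -0.025, and 0.18 was the highest of all sheep and cow pairs. Sheep and cow libraries come from different animals, so the numbers pair no animals. With 3 libraries per species these correlations cannot tell whether a batch went with the replicate number.

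The log2 difference of miR-182 reversed to 0.84, 2.27, 1.13, 0.51 and 0.76 under the settings named with it in the results, and ranged from -1.06 to 0.76 with 1 library left out. The other 4 kept their sign under every alternative that gave a value: miR-375 from 5.99 to 8.90, miR-7 from 4.96 with limma on log2(TPM + 10) to 14.69 without cow replicate 2, miR-183 from 1.38 to 4.62 and miR-96 from -5.44 to -0.15, the last with limma on log2(TPM + 10). The summed share in sheep, 2.98%, was 1.92% to 4.09% with 1 sheep library left out and 0.294% of the constant behind the TPM. In cow, 0.0295% was 0.0230% to 0.0351% with 1 cow library left out, 0.164% of the joined counts, 0.00100% of the constant and, chosen after seeing the data, 0.0794% without each library's largest row. Within the cluster, leaving out 1 sheep library gave 61.3% to 75.2% miR-183, 0.622% to 1.82% miR-96 and 24.2% to 37.1% miR-182. Leaving out cow replicate 2 or 3 gave 9.09% to 16.1%, 32.5% to 32.9% and 51.0% to 58.4%. Cow replicate 1, with 19 cluster counts, was below the minimum of 20 and enters no cow mean but the one named as of all 3. Depth limits miR-7 and miR-96 most: all cow libraries together held 6 miR-7 counts, and all sheep libraries 30 miR-96 counts.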
